A study of Mus musculus with 8 samples.

Results

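The subject is the nuclear-encoded subunits of the mitochondrial respiratory chain and of ATP synthase, as seen in ribosome-bound RNA of mouse Müller cells. Members were taken by gene symbol alone: the Nduf names with a, b, c, s or v and a number, Sdha to Sdhd, the Uqcr names, Cyc1, Cycs, the Cox names of subunits 4 to 8, and the Atp5 names. This gave 83 of the 12339 genes in the deposited table: 38 of complex I, 4 of complex II, 9 of complex III, cytochrome c (Cycs), 14 of complex IV and 17 of complex V. The annotation has 86 protein-coding symbols of this form, of which 82 had a row; Cox6a2, Cox7b2, Cox8b and Cox8c did not. The remaining member, Ndufb1-ps, is annotated as non-coding.

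All 8 samples were retinas at postnatal day 14 of oxygen-induced retinopathy (OIR), in which pups kept in high oxygen return to room air and the inner retina becomes short of oxygen. The 4 control samples were wild type (WT), and in the other 4 Nrf2 was conditionally deleted in Müller cells (cKO). Both groups were numbered 1, 3, 4 and 5. RNA was recovered by RiboTag, a method in which Cre-expressing cells make a tagged Rpl22 so that their ribosomes can be pulled down. The Cre driver, the deleted exon, the sex and whether a sample was 1 animal are not given in the sources used here, so the p-values reflect only how these 8 samples spread. The comparison asks how RNA on Müller cell ribosomes differs when Nrf2 (gene Nfe2l2), an activator of antioxidant genes, is deleted.

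In the respiratory chain, complex I takes electrons from NADH and complex II from succinate, complex III passes them to cytochrome c, and complex IV hands them to oxygen. Complexes I, III and IV pump protons, and complex V (ATP synthase) uses the proton gradient to make ATP. A few core subunits of complexes I, III, IV and V are encoded by the mitochondrial genome; the others are encoded in the nucleus, made on cytosolic ribosomes and imported. Müller cells are known to rely strongly on glycolysis, whereas photoreceptors are known for dense mitochondria.

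Nfe2l2 was measured first, as the check of the labels. It stood at 17.5, 18.8, 23.1 and 17.5 FPKM (fragments scaled to transcript length and library size) in WT replicates 1, 3, 4 and 5, and at 12.7, 16.5, 14.8 and 10.4 FPKM in cKO replicates 1, 3, 4 and 5. All 4 cKO values lay below all 4 WT values, by 0.50 ± 0.15 on the log2 scale (SE; limma, adjusted p = 0.453; with the replicate number as a block, adjusted p = 0.0219). Nfe2l2 RNA was thus still present in the cKO libraries, and FPKM over the whole gene does not show a lost exon. Library depth is unknown, since the table holds FPKM without counts. The 83 members had between them 2.37 to 3.11% of all FPKM in the WT libraries (2.76 ± 0.34%, SD, n = 4) and 2.64 to 3.33% in the cKO libraries (3.11 ± 0.32%, SD, n = 4), and the groups overlapped. None of the members was listed at 0 in any library.

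Most subunits were slightly higher in the cKO samples. The difference, cKO minus WT on the log2(FPKM + 0.5) scale, was above 0 for 75 of 83 members and below 0 for 8, with a median of 0.21 where the median over all 12339 genes was 0.0036. It ranged from −0.15 for Cox7a1 to 0.42 for Atp5mpl, with Ndufs5 apart at 1.55. Without a block no member passed the test (limma with Benjamini-Hochberg adjustment over all genes, threshold 0.05; smallest adjusted p among members 0.453). This was also the case for every other gene, so the share called was 0%. At an unadjusted p under 0.05, 5 members were higher (Atp5mpl, Ndufs5, Ndufv3, Uqcr10 and Uqcrh; 6.02% of members against 3.95% of all genes) and none was lower (6.67% of all genes were). The count of 5 rested on which libraries were in the fit: it was 3, 1, 15 and 15 without WT replicate 1, 3, 4 or 5, and 1, 33, 2 and 1 without cKO replicate 1, 3, 4 or 5. The share of all genes at that level was not counted in these smaller fits. In bulk RNA, a different number of cells of a type and a different amount of RNA per cell cannot be told apart.

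Samples of equal number deviated together, so the same test was run with the number as a block. With the block 16 members rose and none fell: Ndufa1, Ndufa4, Ndufa6, Ndufa8, Ndufb8, Ndufs6 and Ndufv3 of complex I by their names, Sdhc of complex II, Uqcr10 and Uqcrh of complex III, Cox5b and Cox8a of complex IV, and Atp5g1, Atp5j, Atp5k and Atp5mpl of complex V. That was 19.3% of the members, against 2.99% of all genes called higher and 7.59% called lower. Genes more like the members were called more often than all genes. Of 248 other genes with transcripts up to 1000 bases and at least 50 FPKM, 46 were called higher and 6 lower. Fewer members were called when any pair of libraries was left out. Without pair 1 only 1 member remained called, without pair 3 there were 4, without pair 4 there were 2 and without pair 5 there were 7. Calls over all genes, in either direction, fell as well, from 1305 to 402, 606, 524 and 821 without pair 1, 3, 4 or 5. Those calls were not split by direction, so an excess of members called higher is not shown once a pair is left out. Atp5mpl alone was called in all 4 of these smaller fits (adjusted p from 0.0362 to 0.0471).

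The direction was the same in all 4 pairs for 49 members, each higher in cKO than in the WT library of its number (59% of members, against 16.7% of all genes). No member was lower in all 4 pairs, against 19.5% of all genes. No member separated the groups: for none were all cKO libraries above all WT libraries (2.06% of all genes were) or below them (2.28%).

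**Figure D1:**
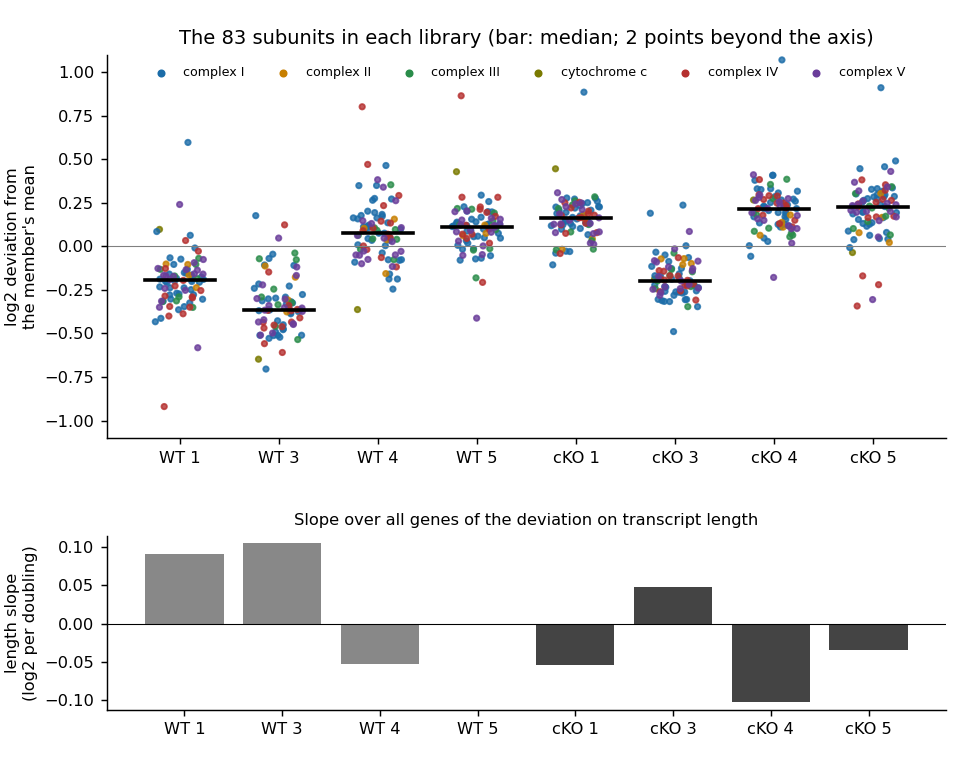
Upper plot: for each library (x axis), the log2 deviation of each of the 83 subunits from its own mean over the 8 libraries (y axis), coloured by complex, with the median as a black bar; lower plot: the slope, over all genes, of a library's log2 deviation on log2 transcript length. WT 1, WT 3 and cKO 3 sit low, with medians of −0.20, −0.37 and −0.20, and these 3 libraries have the most positive length slopes, at 0.091, 0.10 and 0.048.

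The members moved together from library to library, and by more than the 2 groups differed in the median. The median deviation of the 83 members was −0.20, −0.37, 0.075 and 0.11 in WT replicates 1, 3, 4 and 5, and 0.16, −0.20, 0.22 and 0.23 in cKO replicates 1, 3, 4 and 5. Within WT, replicates 1 and 3 were thus low and replicates 4 and 5 high, and within cKO only replicate 3 was low. The cKO library exceeded the WT library of its number each time. Leaving out single libraries moved the median difference of the members from 0.11 (without WT replicate 3) to 0.30 (without cKO replicate 3). The medians of the complexes moved likewise: over all leave-outs of 1 library, that of complex I ran from 0.11 to 0.32, complex II from 0.067 to 0.18, complex III from 0.068 to 0.31, complex IV from 0.13 to 0.33 and complex V from 0.12 to 0.29. Differences between complexes were not tested.

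Complex I is built of core subunits found also in bacteria, some of them nuclear, and of accessory subunits that surround them. All 29 accessory members were higher in cKO, with a median difference of 0.23 and, Ndufs5 aside, a highest value of 0.33. Of the 7 nuclear core members, 5 were higher and 2 lower; their differences ran from −0.14 to 0.16, and none was called with the block. The difference between these roles was not tested, since the members of a role are not replicates. The accessory transcripts had a median of 763 bases, and the core transcripts ran from 870.5 to 2625.5 bases. Levels in complex I ran from 12.4 FPKM for Ndufb4 to 436 FPKM for Ndufa4l2, with a median of 101.

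Among the accessory subunits, Ndufb8, a part of the membrane arm, was at 119.9, 107, 121 and 149.7 FPKM in WT replicates 1, 3, 4 and 5 and at 168, 118, 167 and 175 FPKM in cKO replicates 1, 3, 4 and 5. The cKO 3 library lay inside the WT range and the other cKO libraries above it. The log2 difference was 0.33 ± 0.15 (SE), with an adjusted p of 0.472 without the block and 0.0338 with it. Ndufv3, which sits on the NADH-oxidising module, was at 197, 181, 206 and 269.5 FPKM in WT and at 261, 235, 264 and 286 FPKM in cKO. WT 5 reached the cKO range, and the other WT libraries lay below all cKO libraries (log2 difference 0.31 ± 0.13; adjusted p 0.469 without the block, 0.0373 with it). Ndufa1, a membrane arm subunit needed for assembly, was at 142, 101, 176 and 192 FPKM in WT and at 179, 132, 206 and 224 FPKM in cKO. Its groups overlapped broadly while its pairs each differed by 0.22 to 0.39, so the adjusted p fell from 0.61 without the block to 0.0257 with it. Ndufa6 rose likewise with the block, from 83.4 ± 14.9 to 97.9 ± 16.3 FPKM (SD, n = 4 each; adjusted p = 0.0379 with the block, 0.59 without).

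Ndufs5, a small subunit facing the intermembrane space, had the largest difference of all members and the least steady values. It was at 26.3, 5.45, 23.9 and 2.45 FPKM in WT replicates 1, 3, 4 and 5 and at 32.2, 20.4, 36.7 and 32.8 FPKM in cKO replicates 1, 3, 4 and 5. The 2 low WT libraries, 3 and 5, were the ones in which BC002163, an annotated processed pseudogene of near-identical sequence (GRCm38 chromosome 16, 42955631 to 42955949), was high: it was at 38.1, 55.6, 39.5 and 83.6 FPKM in WT and 46.4, 37.3, 51.6 and 42.8 FPKM in cKO. To set both loci together, each FPKM was multiplied by its transcript length in kilobases and the products added, a scale on which values cannot be compared with the FPKM above. The sum was 26.0 ± 3.37 (SD, n = 4) in WT against 32.5 ± 6.03 (SD, n = 4) in cKO, a log2 difference of 0.31. This sum was made after the values were seen. The size of the difference of Ndufs5 alone is therefore uncertain (log2 difference 1.55 ± 0.62, SE; adjusted p 0.469 without the block, 0.0697 with it).

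Ndufa4 carries a complex I name but is known as a subunit of complex IV, and Ndufa4l2 is its hypoxia-induced relative. Ndufa4 was at 373, 321, 374 and 451 FPKM in WT replicates 1, 3, 4 and 5 and at 497, 338, 478 and 574 FPKM in cKO replicates 1, 3, 4 and 5. It was called with the block only (log2 difference 0.30 ± 0.17; adjusted p 0.516 without the block, 0.045 with it). Ndufa4l2 was at 321, 299.7, 544 and 429 FPKM in WT and at 487, 417, 556 and 439 FPKM in cKO (log2 difference 0.29 ± 0.19; adjusted p 0.569 without the block, 0.134 with it). Ndufa4l2 made up 50.6 ± 5.85% of their summed FPKM in WT against 50.4 ± 5.33% in cKO (SD, n = 4 per group). The size of this share depends on the transcript lengths used for FPKM, which are not given.

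**Figure D2:**
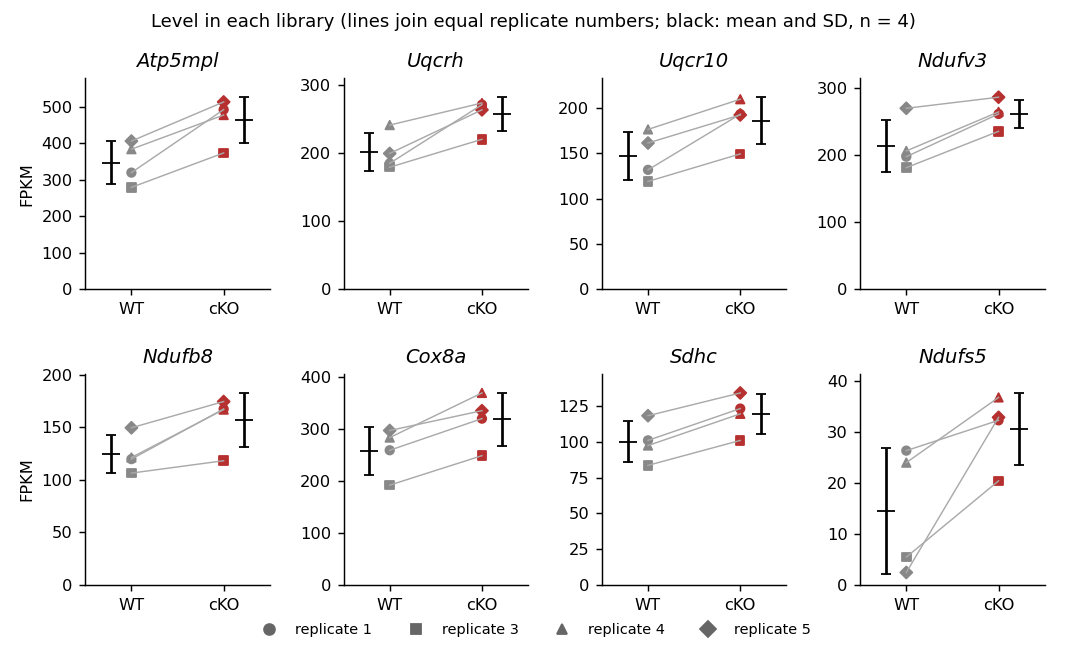
FPKM (y axis, from 0) of 8 subunits in each WT and cKO library, with lines joining libraries of equal replicate number and the mean with SD (n = 4) in black. Each line rises from WT to cKO for all 8 genes, while the 2 groups of points overlap for every gene; for Ndufs5 the lines start at 2.45 to 26.3 FPKM.

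Complex II, whose 4 subunits are all nuclear, had a median difference of 0.13. Sdhc, which anchors the enzyme in the membrane, was at 101, 83.5, 97.3 and 118 FPKM in WT replicates 1, 3, 4 and 5 and at 123, 101, 119 and 134 FPKM in cKO replicates 1, 3, 4 and 5. The 4 pairs differed by 0.18 to 0.29, and the call was made with the block only (log2 difference 0.26 ± 0.13; adjusted p 0.483 without the block, 0.0302 with it). Sdhc has the longest transcript of the members, 3171 bases. Sdhd, the other anchor, was at 69.0 ± 8.49 and 78.0 ± 5.80 FPKM (SD, n = 4 each; adjusted p = 0.12 with the block). The catalytic flavoprotein Sdha was at 136 ± 10.5 and 138 ± 6.75 FPKM, and the iron-sulfur protein Sdhb at 74.7 ± 10.4 and 78.2 ± 6.25 FPKM. For Sdha the log2 difference of 0.026 turned to −0.0071 when every library was scaled to the same sum.

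In complex III, the small subunits had higher differences than the large ones. This contrast was not tested, and the split was made after the values were seen. The 5 small subunits (Uqcrh, Uqcr10, Uqcrb, Uqcrq and Uqcr11) were all higher in cKO, with a median difference of 0.25 and transcripts of 434 to 963 bases. The core proteins Uqcrc1 and Uqcrc2, cytochrome c1 (Cyc1) and the Rieske iron-sulfur protein (Uqcrfs1) had a median of 0.013, ran from −0.038 to 0.080, and have transcripts of 1363 to 1896 bases. Uqcrh, the hinge protein that helps cytochrome c1 meet cytochrome c, was at 185, 179, 241 and 199.7 FPKM in WT replicates 1, 3, 4 and 5 and at 271, 221, 274 and 264 FPKM in cKO replicates 1, 3, 4 and 5. Only WT 4 reached the cKO range. The log2 difference was 0.36 ± 0.12, with an adjusted p of 0.453 without the block and 0.0244 with it. Uqcr10, a small membrane-spanning subunit, was at 132, 119, 176 and 161 FPKM in WT and at 193, 149, 209 and 192 FPKM in cKO, and cKO 3 lay inside the WT range (log2 difference 0.34 ± 0.15; adjusted p 0.469 without the block, 0.0234 with it).

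Cycs, the mobile carrier between complexes III and IV, was low, at 11.1, 6.45, 7.96 and 14.1 FPKM in WT replicates 1, 3, 4 and 5 and at 14.3, 9.05, 12.6 and 10.1 FPKM in cKO replicates 1, 3, 4 and 5. It was higher in cKO in pairs 1, 3 and 4 and lower in pair 5, and was not called (adjusted p 0.68 without the block, 0.381 with it). Of its annotated 50-base stretches, 28.5% occur in other genes too.

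Complex IV had a median difference of 0.23 and held both higher and lower members. The 10 subunits of its main form were all higher in cKO, with a median of 0.25. Cox8a, the smallest of them, was at 259, 192, 284 and 297 FPKM in WT replicates 1, 3, 4 and 5 and at 320.2, 249, 369.6 and 335 FPKM in cKO replicates 1, 3, 4 and 5; cKO 3 fell below 3 of the WT libraries, and the other cKO libraries lay above all of WT. The log2 difference was 0.31 ± 0.17, with an adjusted p of 0.499 without the block and 0.0253 with it. Cox5b, a zinc-binding subunit on the matrix side, was at 130.1, 133, 169.7 and 187 FPKM in WT and at 204, 156, 195 and 224 FPKM in cKO (log2 difference 0.33 ± 0.15; adjusted p 0.476 without the block, 0.0475 with it). Cox7b (0.32 ± 0.16), Cox7a2 (0.26 ± 0.15), Cox6b1 (0.25 ± 0.15), Cox6a1 (0.25 ± 0.17) and Cox4i1 (0.21 ± 0.17) had log2 differences of similar size, and were called in neither fit.

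Other forms of complex IV subunits were set apart as a role after the values were seen, and their differences ran from −0.15 to 0.29. Ndufa4l2, the hypoxia-induced relative given above, was not among them and had a difference of 0.29. Cox4i2, the form of subunit 4 known to be induced in hypoxia and found in lung, was at 238, 274, 419.97 and 313 FPKM in WT replicates 1, 3, 4 and 5 and at 319, 265, 365 and 269 FPKM in cKO replicates 1, 3, 4 and 5. It made up 42.3 ± 4.03% of the FPKM of both in WT against 38.6 ± 3.58% in cKO (SD, n = 4 per group). The share was between 37.9 and 47.2% in WT and between 33.3 and 40.9% in cKO, so the groups overlapped, and it was lower in cKO in all 4 pairs. The size of such shares depends on the transcript lengths used for FPKM, which are not given. The log2 difference of Cox4i2 itself was −0.011 ± 0.18, where that of Cox4i1 was 0.21. Cox6b2, known from testis, was at 19.3 ± 2.49 and 18.1 ± 2.87 FPKM, or 8.36 ± 1.85% and 6.59 ± 0.62% of the FPKM of Cox6b1 and Cox6b2. The share of Cox6b2 was lower in cKO in all 4 pairs too. The share of Cox7a1 in the FPKM of Cox7a1 and Cox7a2, and the Ndufa4l2 share given above, went both ways. Each was higher in cKO in pairs 1 and 3 and lower in pairs 4 and 5. Cox7a1, the heart and muscle form, was at 2.67, 3.93, 9.95 and 10.4 FPKM in WT and at 5.33, 4.95, 6.47 and 4.23 FPKM in cKO, the lowest of the members. The signs of these 3 small differences, −0.011, −0.091 and −0.15, turned when libraries were weighted by quality. Cox7a2l, which joins complexes III and IV into supercomplexes, was higher in all 4 pairs (58.2 ± 10.7 and 71.1 ± 11.01 FPKM; adjusted p = 0.0512 with the block).

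**Figure D3:**
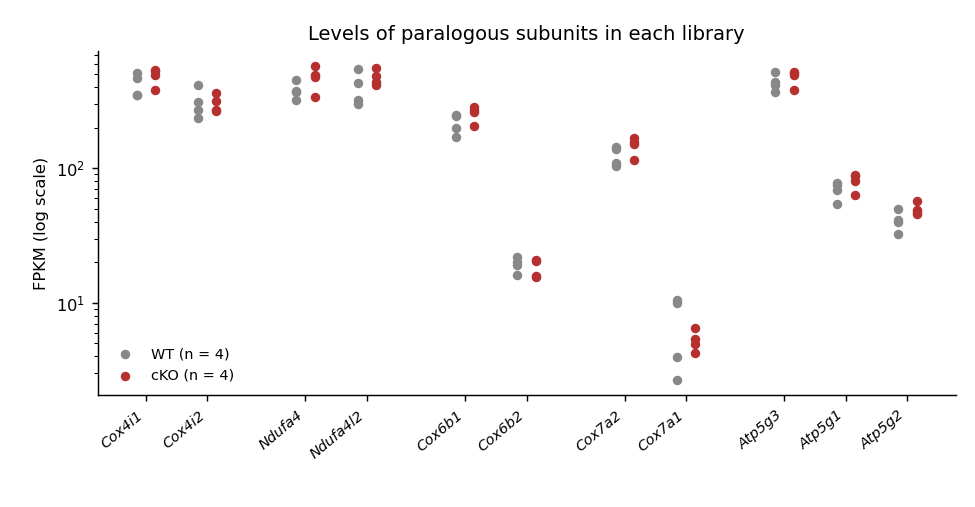
FPKM (y axis, log scale) of subunits that have paralogues, in each of the 4 WT (grey) and 4 cKO (red) libraries. Ndufa4l2 sits at the level of Ndufa4 and Cox4i2 somewhat below Cox4i1, whereas Cox6b2 and Cox7a1 sit far below Cox6b1 and Cox7a2. Levels of different genes depend on the transcript lengths used for FPKM, which are not given. The groups overlap for every gene shown.

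Complex V was higher in cKO for 16 of 17 members, with a median difference of 0.19, and 14 of the 17 were higher in all 4 pairs. Atp5mpl, a small hydrophobic protein of its membrane part, had the largest steady difference of all members. It was at 319, 279, 384 and 406 FPKM in WT replicates 1, 3, 4 and 5 and at 492, 373, 477 and 513 FPKM in cKO replicates 1, 3, 4 and 5. WT 4 and WT 5 overlapped cKO 3 alone. The log2 difference was 0.42 ± 0.15, with an adjusted p of 0.453 without the block and 0.0132 with it. Atp5j, coupling factor 6 of the peripheral stalk, was at 121, 114, 161 and 163 FPKM in WT and at 163, 146, 205 and 181 FPKM in cKO (log2 difference 0.32 ± 0.15; adjusted p 0.478 without the block, 0.0243 with it). Atp5k, subunit e of the membrane part, was at 177, 154, 195 and 191 FPKM in WT and at 239, 165, 244 and 248 FPKM in cKO, with cKO 3 far below its group (log2 difference 0.31 ± 0.15; adjusted p 0.478 without the block, 0.0354 with it).

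The ring of subunit c is encoded by 3 genes that make the same mature protein. Atp5g3 had the highest FPKM (434 ± 63.4 and 478 ± 65.9 FPKM in WT and cKO; SD, n = 4 per group), followed by Atp5g1 (69.1 ± 10.7 and 80.2 ± 11.9 FPKM) and Atp5g2 (41.1 ± 7.16 and 49.6 ± 5.03 FPKM), an order that held in every library. This order depends on the transcript lengths used for FPKM, which are not given, and the length of Atp5g1 is uncertain. All 3 genes were higher in all 4 pairs, and Atp5g1 was called with the block (adjusted p = 0.0488; 0.572 without it). The soluble F1 head, which carries the catalytic sites, had differences of 0.12 to 0.21. Its catalytic subunit Atp5b was the most abundant member of all, at 619, 595, 648 and 756 FPKM in WT replicates 1, 3, 4 and 5 and at 790.1, 616, 774 and 795 FPKM in cKO replicates 1, 3, 4 and 5 (log2 difference 0.18 ± 0.13; adjusted p 0.6 without the block, 0.169 with it). Atp5s, named coupling factor B and the lowest member of the group (11.9 ± 2.77 and 10.8 ± 1.90 FPKM), was the exception, with a difference of −0.13 ± 0.18.

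Transcript length moved with these results. Members were short, with a median of 861 bases (371 to 3171) against 2875.25 for all genes, and 52 of 83 had at most 1000 bases. Other genes of that length were higher in cKO too: their median difference was 0.14 over 1051 genes, and 0.21 over the 248 of them with a mean of at least 50 FPKM, of which 229 were higher in cKO. The 52 short members had a median of 0.24. The 31 longer members were set beside other genes of their own length class. Between 1000 and 1500 bases 12 of 12 members were higher, where 70.5% of other genes were. Between 1500 and 2000 bases it was 7 of 11 members, where 59.7% of other genes were, and between 2000 and 3000 bases 5 of 6, where 54.8% were. These classes were not matched for level. Of the 1599 other genes over 1000 bases with a mean of at least 50 FPKM, 1067 were higher in cKO, with a median of 0.068. The 31 longer members had a median of 0.15, and 26 of them were higher. Over length classes, the median of the other genes was 0.13 at up to 600 bases, 0.15 from there to 800 and 0.13 from there to 1000 bases, then fell through 0.097, 0.050, 0.020 and −0.016 to −0.12 above 5000 bases. Of the 248 short and abundant other genes, the fit with the block called 46 higher and 6 lower.

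**Figure D4:**
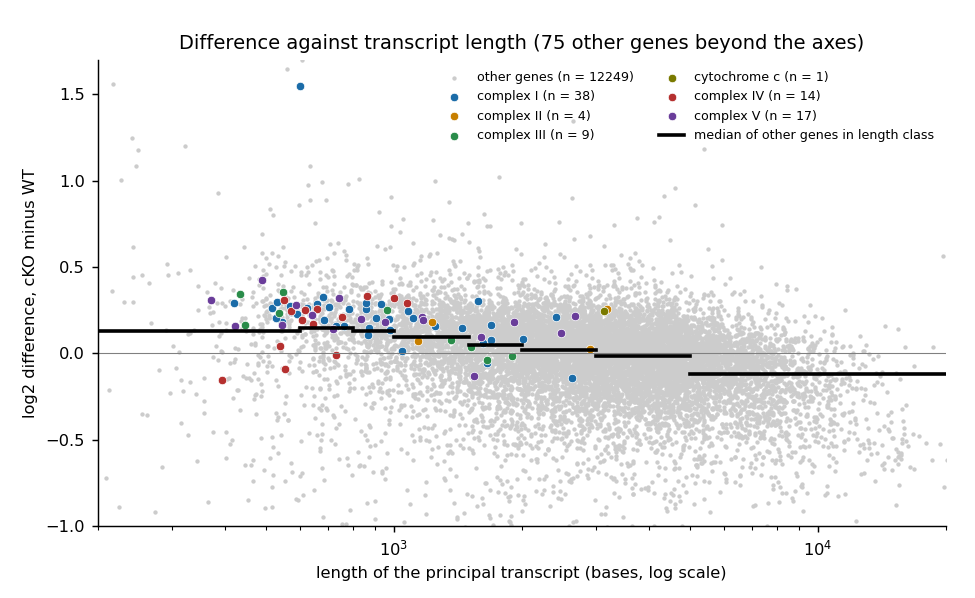
Log2 difference, cKO minus WT (y axis), against the length of the principal transcript in bases (x axis, log scale) for the 83 subunits, coloured by complex, and for other genes in grey; black bars give the median of the other genes in each length class. The bars lie at 0.13, 0.15 and 0.13 up to 1000 bases and fall beyond that to −0.12, and most subunits lie at the short end at or above the bars; Ndufs5 is the subunit at 1.55.

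The relation between a gene's length and its deviation also differed between libraries. Its slope, in log2 units per doubling of transcript length, was 0.091, 0.10, −0.053 and −0.00038 in WT replicates 1, 3, 4 and 5 and −0.054, 0.048, −0.10 and −0.035 in cKO replicates 1, 3, 4 and 5. The slope was lower in cKO in all 4 pairs, but the groups overlapped (0.036 ± 0.075 and −0.036 ± 0.063, SD, n = 4 each; exact two-sided permutation test over 70 assignments, p = 0.171). The sources of the slopes were not tested.

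After the length relation was removed from each library by a spline, the median difference of the members was 0.13 and that of all genes 0.034, and 72 of 83 members were higher. No gene was called without the block. With the block, 6 members stayed higher and none was lower: Uqcrh (0.28), Uqcr10 (0.27), Sdhc (0.29), Atp5mpl (0.34), Atp5j (0.24) and Atp5g1 (0.24), with adjusted p-values of 0.0299, 0.0245, 0.0214, 0.0121, 0.047 and 0.0363. That was 7.23% of the members, against 2.62% of all genes called higher and 4.72% called lower. Of the 248 short and abundant other genes, 20 were called higher and 7 lower in the same fit, and their corrected median was 0.13, as for the members. Over 1000 bases, the corrected median was 0.10 for members and 0.083 for other genes of at least 50 FPKM. Among the complex I and complex IV names, Ndufv3 and Cox5b had corrected differences of 0.27 and 0.26, similar in size to those called, with adjusted p-values of 0.0513 and 0.0525. By role, all 29 accessory complex I subunits stayed higher, with a corrected median of 0.16, as did 4 of the 7 core subunits; small complex III subunits had a corrected median of 0.18 and large ones −0.017. Atp5g1 has annotated principal transcripts of 596 to 4715 bases and Ndufb2 of 455 to 4371 bases, so the length given to these members is uncertain.

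**Figure D5:**
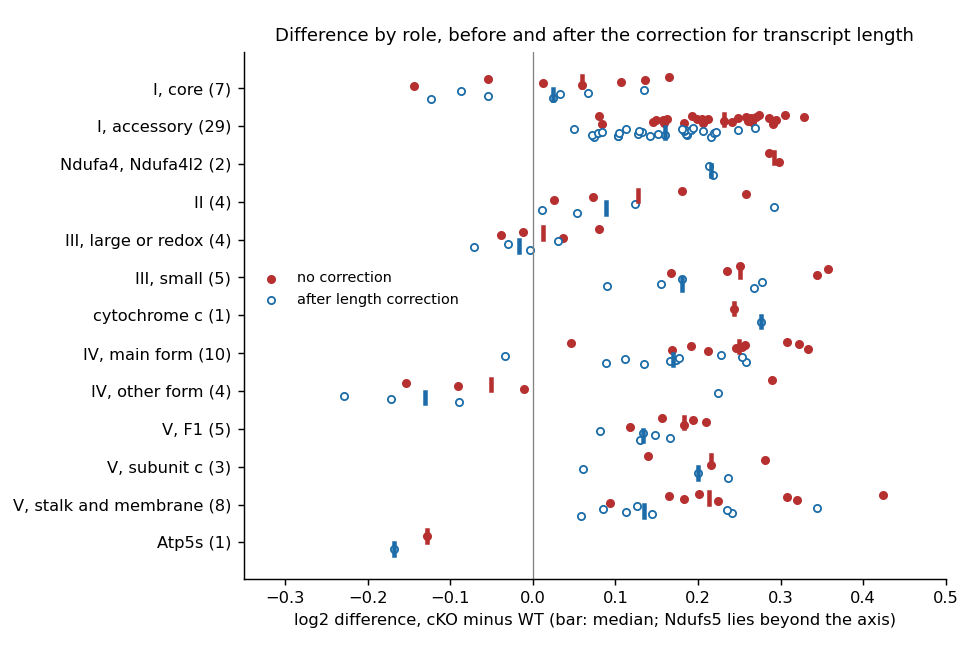
Log2 difference, cKO minus WT (x axis), of each subunit by its role in the complex (y axis, number of genes in brackets), without correction (filled) and after the correction for transcript length (open), with medians as bars. The core subunits of complex I lie on both sides of 0, the large or redox subunits of complex III have medians of 0.013 and −0.017, and the correction moves most other roles towards 0 without crossing it; Ndufs5 lies beyond the axis.

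Other genes of the same pathway had longer median transcripts than the members, and their difference from the members was not tested. Of 47 measured assembly factors, which build the complexes without staying in them, 39 were higher in cKO with a median of 0.14, and with the block 3 rose (Cox17, Coa3 and Sdhaf4) and 2 fell (Ttc19 and Foxred1). Their median transcript had 1679 bases, and after the length correction their median difference was 0.10, beside 0.13 for the members. The 19 enzymes of the citric acid cycle and pyruvate oxidation had a median of 0.051 (median length 2506 bases; corrected median 0.039), and none was called in either fit. Import proteins and carriers had a median of 0.087 over 23 genes (1547.5 bases; corrected median 0.045), with Vdac1 called higher with the block. Of the ribosomal proteins, which are abundant and short as well, the 90 cytosolic ones had a median of 0.21 (20 higher and 1 lower with the block), and the 78 mitochondrial ones 0.14 (8 higher, none lower).

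The subunits that the mitochondrial genome encodes went the other way. All 7 that were measured, of 13 fixed in the list, were lower in cKO, with a median of −0.54, and all 7 fell with the block, while none passed without it. mt-Nd1 of complex I fell from 109 ± 5.58 to 69.0 ± 7.09 FPKM (SD, n = 4 each; adjusted p = 0.00412 with the block, 0.149 without), mt-Cytb of complex III from 111 ± 12.8 to 82.0 ± 9.52 FPKM (0.0127 and 0.453), and mt-Co1 of complex IV from 255 ± 35.1 to 195 ± 30.8 FPKM (0.00783 and 0.453). These RNAs are translated inside mitochondria, on ribosomes that do not hold Rpl22. All 7 stayed called after the length correction with the block.

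The genes listed as regulators of respiratory genes went both ways. Not all of them drive nuclear genes: Tfam, Tfb1m, Tfb2m and Polrmt act on the mitochondrial genome. Their median difference over 18 genes was −0.011, with 9 higher and 9 lower. Within pairs 1, 3, 4 and 5 their medians were −0.089, −0.034, −0.15 and −0.10. Their transcripts were long, with a median of 4034 bases, and the median difference after the length correction was 0.038. Gabpa and Gabpb1, which encode chains of the factor GABP, had differences of −0.039 and 0.034, Nrf1 0.046, Yy1 0.069, Esrra 0.077 and Tfam 0.12. GABP is also called nuclear respiratory factor 2, and is a different protein from the Nrf2 deleted here. With the block, 2 of the listed genes fell. Perm1, a muscle regulator of oxidative genes, went from 8.03 ± 2.14 to 4.61 ± 1.86 FPKM (SD, n = 4 each, limma, adjusted p = 0.0072 with the block, 0.453 without). Gabpb2, which also encodes a GABP chain, went from 6.42 ± 2.05 to 4.53 ± 1.55 FPKM (SD, n = 4 each, limma, adjusted p = 0.0296 with the block, 0.502 without).

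Promoters were read from RefSeq (GRCm38.p6; 250 bases before to 50 after a gene's start) for the 65 members that matched, and searched on both strands for short motifs. The core of the NRF1 motif, GCGCATGCG, was in 9 of 65 members (13.8%) and in 1.95% of all 27025 genes with such a promoter. The GABP core CCGGAAG was in 16 (24.6% against 9.93%), the YY1 motif AAGATGGCG in 7 (10.8% against 1.64%), and the oestrogen-related receptor motif TCAAGGTCA in 2 (3.08% against 0.47%). The core of the antioxidant response element through which Nrf2 acts, TGACNNNGC, was in 9 members (13.8%) and in 14% of all genes. The 27025 genes were not limited to those measured here, so these shares do not set the members beside other measured genes. A match is a description of the letters, not of binding. The 4 stretches below, from 150 bases before to 30 after the start, belong to members called with the block and show an NRF1 core with a GABP core (Atp5k, chr5:108434370-108434549, minus strand), a GABP core alone (Uqcrh, chr4:116075041-116075220, minus strand), a YY1 motif with a GABP core (Atp5j, chr16:84834947-84835126, minus strand, the neighbour of Gabpa) and an antioxidant response element core (Cox5b, chr1:36691337-36691516, plus strand). Capitals mark the motif letters; in Atp5k the 10 capitals of the first run hold the palindromic NRF1 core on both strands.
Atp5k: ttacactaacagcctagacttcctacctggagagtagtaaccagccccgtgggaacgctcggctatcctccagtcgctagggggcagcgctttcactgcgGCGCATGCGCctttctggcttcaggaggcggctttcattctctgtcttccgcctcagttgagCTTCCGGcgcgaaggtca
Uqcrh: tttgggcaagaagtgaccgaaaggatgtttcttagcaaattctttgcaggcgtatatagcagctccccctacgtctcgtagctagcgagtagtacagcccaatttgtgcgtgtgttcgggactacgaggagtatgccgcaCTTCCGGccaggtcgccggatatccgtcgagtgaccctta
Atp5j: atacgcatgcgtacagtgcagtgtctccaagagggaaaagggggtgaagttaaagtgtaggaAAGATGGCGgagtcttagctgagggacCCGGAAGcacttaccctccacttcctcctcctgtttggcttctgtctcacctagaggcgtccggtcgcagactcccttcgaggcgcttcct
Cox5b: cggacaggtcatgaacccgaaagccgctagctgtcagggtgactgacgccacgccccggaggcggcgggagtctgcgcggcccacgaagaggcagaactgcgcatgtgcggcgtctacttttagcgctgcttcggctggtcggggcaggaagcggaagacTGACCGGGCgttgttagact

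Markers of other retinal cells moved between the groups as well, and their part in the results above was not tested. The 13 measured Müller markers (of 14) summed to 9760 to 16798 FPKM in WT and 10566 to 14744 FPKM in cKO, with a median difference of −0.10; with the block Aqp4 fell. The 15 rod markers summed to 4450 to 6883 and 4653 to 7298 FPKM, with a median of 0.12, and Gngt1 rose with the block. The 12 bipolar cell markers summed to 2243 to 2866 and 2785 to 3557 FPKM, with a median of 0.23, and 6 of the 12 rose with the block (among them Pcp2, Gng13 and Cabp5). Amacrine and horizontal cell markers (8 of 12 measured; 223 to 254 and 173 to 215 FPKM) and ganglion cell markers (7 of 10; 71.0 to 96.9 and 52.4 to 73.8 FPKM) were lower, with medians of −0.35 and −0.51 and 4 members each that fell with the block. Cone markers (8 of 9; 92.4 to 124 and 103 to 119 FPKM) had 1 member that rose and 4 that fell, and astrocyte markers (6 of 7; 512 to 874 and 686 to 988 FPKM) had 2 that rose, Gfap and S100b. Endothelial and pericyte (4 of 12; 195 to 279 and 206 to 255 FPKM), microglial (1 of 11; 8.05 to 11.7 and 8.61 to 12.5 FPKM) and pigment epithelial markers (2 of 9; 5.02 to 10.6 and 5.57 to 9.33 FPKM) were mostly without a row; of these, Rgs5, a pericyte marker, rose with the block from 28.0 ± 2.25 to 47.9 ± 5.52 FPKM (SD, n = 4 per group; limma, adjusted p = 0.00277). The members' levels therefore come from libraries that hold RNA of neurons beside that of Müller cells.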

How the data were processed

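RNA on Müller cell ribosomes was sequenced in 4 WT and 4 cKO retina samples; per the labels' protocols, poly(A) RNA went into directional libraries. The authors deposited 1 table of FPKM for 12339 genes, the unit being given by its name; each gene's mean was above 2. Per the submitters' processing notes STAR, edgeR and GRCm38 were used; counting, annotation and strand setting are not given in the sources used here, and depth is unknown, so no counting interval was computed. For 25 of 83 members the deposited locus ran over 1000 bases past the annotated gene, so overlapping neighbours could share fragments. Of the members, 18 shared at least 20% of their 50-base stretches with other genes.

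Values were tested as log2(FPKM + 0.5) with limma 3.58.1 in R 4.3.3 (lmFit, eBayes with a trend; two-sided; Benjamini-Hochberg over 12339 genes; threshold 0.05). Transcript length was the median of the principal transcripts in GENCODE mouse release 21 (12332 IDs matched); its correction was a spline with 4 degrees of freedom per library. Replicate numbers were taken to pair the samples, a reading that rests on these same data. After group means were removed, libraries of equal number correlated across genes at 0.261, 0.591, 0.565 and 0.429, all over 0.1, and those of unequal number at −0.479 to 0.211. Of the unequal ones, WT 5 with cKO 4 (0.211) and WT 1 with cKO 3 (0.180) were also over 0.1. The labels do not state what a number marks. Fits with the number as a block left 3 residual degrees of freedom in place of 6.

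Named members were, per complex, up to 4 with the smallest p in each fit, the highest and lowest by FPKM, and the paralogues; other names were chosen after values were seen, as were the roles within a complex. The members and all lists were chosen with earlier results of these data known. Other settings tried were the pseudocount, a minimum mean, scaling, the block, length and GC correction, library weights, eBayes options and left-out libraries. The fits were run on simulated data without a replicate effect and with larger changes than most members showed. That run does not test the calls made here with the block. Values of some genes are not reported here.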

Additional observations from a re-analysis of the deposited data

Results flagged for a closer look

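In the cKO group, replicate 3 lay far below the other 3 libraries for 4 members and 4 summaries, by a gap that exceeded Dixon's critical share of the group's range. Atp5k was at 165 FPKM there against 239 to 248 in the others, Ndufb8 at 118 against 167 to 175, Ndufb6 at 68.4 against 81.1 to 83.1, and Atp5b at 616 against 774 to 795. The median log2 deviation of all members was −0.20 in cKO 3 against 0.16 to 0.23, that of complex I −0.22 against 0.16 to 0.23, that of complex II −0.086 against 0.10 to 0.12, and that of complex IV −0.19 against 0.17 to 0.24. Chance alone flags about 1 in 20 groups; 94 groups were examined and 8 stood out, all of them in this library and on values that move together. Without cKO replicate 3 the median difference of the members was 0.30 in place of 0.21, and 33 members in place of 5 had an unadjusted p under 0.05. The share of all genes at that level was not counted in that fit, so the 33 have no background beside them.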

How the results depend on the processing

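The median difference of the members and of each complex kept its direction under every setting run, and the members' median stayed between 0.11 and 0.32. The medians of complexes I, II, III, IV and V ran over all settings from 0.11 to 0.33, 0.066 to 0.22, 0.065 to 0.33, 0.13 to 0.37 and 0.12 to 0.30, with the highest of each under library weights. They were 0.11, 0.067, 0.088, 0.13 and 0.12 without WT replicate 3, and 0.14, 0.070, 0.065, 0.15 and 0.13 without pair 1. Without cKO replicate 3 those of complexes I, III and V were 0.32, 0.31 and 0.29. Complex III was also at 0.079, 0.29 and 0.068 without WT replicate 1, WT replicate 4 or cKO replicate 4, and complex II at 0.081 without WT replicate 1. The number of members called, 0 of 83 without a block, changed with it: with the replicate block 16 were called (1305 genes in all), with the block and equal sums 13 (1350 genes), with the block and the length correction 6 (906 genes), with the block and a correction by exon-union length 8 (923 genes) or by length and GC 6 (934 genes). Among members sharing under 20% of their 50-base stretches, 15 were called with the block. Without 1 replicate, fits called 0 to 821 genes and 0 to 7 members, and those at an unadjusted p under 0.05 numbered 1 to 46. That last count, 5 as reported, was 49 with the block, 8 with equal sums, 3 with the length correction, 57 with library weights (which called 1 gene), and with the block 47, 40, 38, 42 and 39 under equal sums, length, exon-union length, length with GC, and unshared members. The share of all genes at an unadjusted p under 0.05 was counted only for the reported fit, so these counts have no background beside them. The corrections by exon-union length and by length with GC, and the set of unshared members, were added after the data were seen. Signs turned for Sdha (−0.0071 with equal sums, with or without the block, and −0.039 with quantile scaling), Cox7a1, Cox6b2 and Cox4i2 (0.22, 0.0063 and 0.16 with library weights) and Uqcrfs1 (−0.0055 with exon-union length, with or without the block), and the median of all genes was −0.028 with equal sums, with or without the block. Without 1 replicate, signs also turned for Sdha (−0.0079 to 0.064), Cox7a1 (−0.50 to 0.20), Cox6b2 (−0.18 to 0.0051), Cox4i2 (−0.15 to 0.14), Atp5s (−0.29 to 0.016) and the median of all genes (−0.0068 to 0.0092); the cause was not tested. The depth is unknown, so what it limits could not be given.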
